A study of Mus musculus with 6 samples.

Results

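Focal adhesion and dense plaque proteins join the actin filaments of a smooth muscle cell to integrins, and through them to the matrix outside. The genes described here are the 10 whose symbols were listed for this group: Vcl, Tln1, Flna, Actn1, Pxn, Ptk2, Zyx, Csrp1, Synpo2 and Pdlim7. Each symbol matched 1 row of the deposited table, so 10 of 55055 genes were followed, and 10 of 10 had enough counts to be tested. The tissue was myometrium, the muscular wall of the uterus, taken from pregnant mice at E19.5 (gestational day 19 in the series design), and its polyadenylated RNA was sequenced. The groups were 3 wild-type mice (labelled TCF23 WT) and 3 mice in which Tcf23, a basic helix-loop-helix factor gene, had been knocked out with CRISPR/Cas9 (labelled TCF23 KO), with 1 library per animal. The labels name no Cre driver and no treatment. The sources used here do not give strain or maternal age. The tissue was collected whole, so in every value below fewer cells of a type and less RNA per cell cannot be told apart.

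In smooth muscle, adhesions run along the cell membrane as dense plaques, where talin binds the tails of integrins and recruits vinculin, and filamin and alpha-actinin crosslink the actin that ends there. Paxillin and focal adhesion kinase carry signals from these sites, and zyxin, the cysteine-rich proteins and the PDLIM proteins are LIM domain proteins that sit on the actin side. In the myometrium of late pregnancy the plaques are known as the points where the force of contraction passes to the tissue and where stretch is sensed.

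Libraries held 39939686 to 65036402 counts. Counts of the targeted gene Tcf23 were 3360 to 5970 in wild-type and 0 to 2 in knockout libraries, which matched the labels in 6 of 6. Markers of smooth muscle were detected in all libraries (12 of 12 genes, none at 0), and their summed level was 32100 to 37520 CPM (counts scaled to a common library size) in wild-type libraries. In knockout replicates 1, 2 and 3 the sum was 40410, 45360 and 18960 CPM, so replicate 3 lay below and the others above the wild-type range. Uterine epithelial markers (8 of 8 detected) summed to 1512 to 3390 CPM in wild-type and 2606, 908.9 and 4290 CPM in knockout replicates 1, 2 and 3. Placental markers (8 genes, with Gcm1 at 0 in 5 libraries) summed to 34.82 to 40.14 CPM in wild-type and 304.7, 9.435 and 0.4757 CPM in knockout. In knockout replicate 1 the sum was carried by Tpbpa (15676 counts, 479 to 1856 in wild-type) and Ceacam11 (3338, 241 to 269 in wild-type). Tfap2c was also above the wild-type range there (191 counts), while counts of Prl3b1, Prl8a8, Psg21 and Psg23 lay within it. Endothelial markers (8 of 8 detected) summed to 556.4 to 655.5 CPM in wild-type and 562.2, 763.8 and 413.1 CPM in knockout. Platelet markers summed to 41.78 to 70.58 CPM in wild-type and 39.63 to 57.51 CPM in knockout, with Gp1bb at 0 in 6 libraries. Fibroblast markers (8 of 8) summed to 18440 to 29580 CPM in wild-type and 19880 to 24730 CPM in knockout, and mesothelial markers (6 of 6) to 144.1 to 252.3 and 88.93 to 113.3 CPM. The part of these differences in the results below was not tested.

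Promoter sequences were searched for 3 motifs because most of the genes were lowest in the same knockout library, Pxn being the exception. Any link between the motifs and the low values in that library was not tested. RefSeq windows (build GRCm38.p6, which is mm10, from 250 bases before to 50 bases after a start site) were found for 8 of the 10 genes, with 9 windows because Csrp1 has 2. Pxn and Ptk2 had no window in the table used. Motifs were searched on both strands: the CArG box bound by serum response factor (SRF), the TEAD motif CATTCC, and the SP1 motif GGGCGG. The CArG box was taken only in its strict form CCWWWWWWGG, where W is A or T. No match of one motif overlapped a match of another in the windows printed. The windows of Vcl, Flna and Synpo2 are shown because these genes spread most widely over the knockout libraries, with CArG and TEAD matches in capitals.
Vcl, chr14:20929148-20929447, plus strand: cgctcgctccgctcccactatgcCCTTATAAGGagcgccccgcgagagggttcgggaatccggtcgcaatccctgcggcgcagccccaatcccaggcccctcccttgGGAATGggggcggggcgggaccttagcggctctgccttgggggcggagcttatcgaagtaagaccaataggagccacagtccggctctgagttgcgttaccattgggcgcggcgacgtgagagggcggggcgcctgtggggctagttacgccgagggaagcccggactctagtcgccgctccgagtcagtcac
Flna, chrX:74246485-74246784, minus strand: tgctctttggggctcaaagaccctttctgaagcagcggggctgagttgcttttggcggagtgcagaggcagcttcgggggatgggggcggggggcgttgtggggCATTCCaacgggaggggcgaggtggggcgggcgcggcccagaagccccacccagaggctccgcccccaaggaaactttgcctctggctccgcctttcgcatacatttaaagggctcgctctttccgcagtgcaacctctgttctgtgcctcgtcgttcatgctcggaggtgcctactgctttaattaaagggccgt
Synpo2, chr3:123236100-123236399, minus strand: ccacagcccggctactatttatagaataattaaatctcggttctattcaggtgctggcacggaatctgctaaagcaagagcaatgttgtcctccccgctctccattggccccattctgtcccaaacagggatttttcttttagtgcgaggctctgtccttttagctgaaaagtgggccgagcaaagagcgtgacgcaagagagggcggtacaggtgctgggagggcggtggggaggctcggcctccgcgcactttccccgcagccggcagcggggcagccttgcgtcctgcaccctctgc

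The Vcl window held a CArG box, CCTTATAAGG, that begins 227 bases before the start site, and it was the only CArG match among the 9 windows (11.1%). Over all genes, 1.63% of 32851 windows of the same length held one. Windows were found for 8 of the 12 smooth muscle markers, and 0 of these 9 windows held the strict form. Looser forms were not counted: the Acta2 window held CCCTATATGG and CCTTGTTTGG, which each differ from the strict form by a single base. The TEAD motif stood 143 bases before the start site of Vcl, on the other strand, and 146 bases before that of Flna; it was in 2 of 9 windows (22.2%), against 14.7% of all windows and 5 of 9 windows of smooth muscle marker genes (55.6%). Synpo2 held neither motif in its window. The SP1 motif was in 7 of 9 windows (77.8%), against 35.7% of all windows and 5 of 9 marker windows (55.6%). A match is a run of letters, and binding was not measured.

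No gene of the group differed between genotypes past the threshold (edgeR's quasi-likelihood test, Benjamini-Hochberg adjusted p under 0.05): 0 of 10 were higher and 0 lower, and 0 reached an unadjusted p under 0.05. DESeq2 and limma-voom on the same counts also called 0 of 10. The background was low, with 4 of 19599 genes called (0.0204%, 0 higher and 4 lower, Tcf23 among them), while 8.56% of genes had an unadjusted p below 0.05 (5.27% higher, 3.29% lower), and DESeq2 called 1.97%. A fit with replicate as a block called 7 genes (0.0357%): 2 genes in all were higher and 5 lower. With upper-quartile scaling the counts were 4 and 8, and neither setting called a gene of the group. Log2 changes (knockout over wild-type) were positive for 2 of the 10 and negative for 8, with a median of −0.12, against a median of 0.01 over all genes, 52.1% of which were positive. The wild-type and knockout values overlapped for 10 of 10 genes, while 14.2% of all genes had groups that did not overlap.

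What set the libraries apart was spread within the knockout group. The highest knockout CPM divided by the lowest had a median of 1.97 over the 10 genes, against 1.13 among wild-type libraries, and it was the wider ratio in 10 of 10. Over the 10156 genes with a mean CPM of 10 or more the medians were 1.40 and 1.17, and the knockout ratio was the wider for 82%. Knockout replicate 3 was below all wild-type libraries for 9 of 10 genes (39.5% of those 10156 genes), and knockout replicate 2 was above all of them for 6 of 10 (28.1%). Knockout replicate 1 was below all wild-type libraries for 2 of 10, Vcl and Synpo2 (39.3%). The spread was not particular to these genes. The median knockout ratio was 2.41 for smooth muscle markers, 2.3 for integrin subunit genes and 1.87 for endothelial markers, but 1.46 over all other focal adhesion lists. Knockout replicate 3 was below all wild-type libraries for 83.3%, 80%, 75% and 50% of these genes. These shares describe single libraries and test nothing about genotype.

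**Figure D1:**
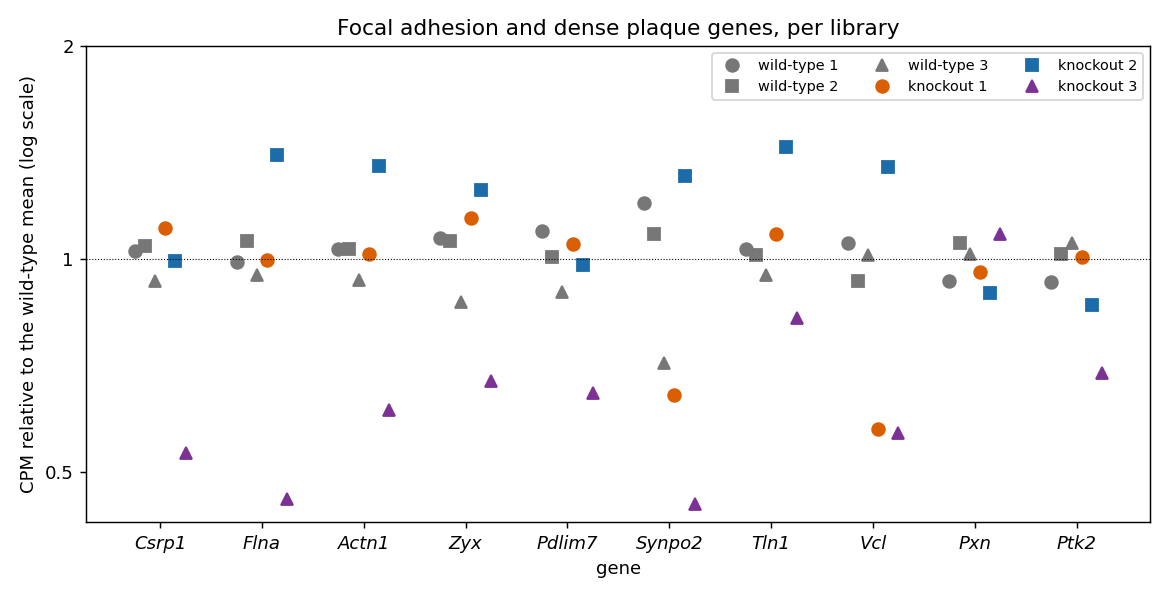
CPM of each gene in each of the 6 libraries, divided by the mean of the 3 wild-type libraries (log axis); grey symbols are wild-type replicates and coloured symbols knockout replicates, and the dotted line marks the wild-type mean. Knockout replicate 3 is the lowest point for 9 of 10 genes, Pxn being the exception, and for Vcl and Synpo2 replicate 1 also lies below the wild-type points.

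Levels per length (TPM, counts scaled by the GENCODE M21 exon length of each gene and then to a common total) ordered the genes within wild-type myometrium. Csrp1 was the most abundant at 5799 ± 276 TPM (mean ± SD, n = 3), followed by Flna at 2090 ± 113, Actn1 at 335 ± 13.7 and Zyx at 294 ± 28.3. Pdlim7 had 262 ± 20.5 TPM, Synpo2 173 ± 41, Tln1 170 ± 4.20, Vcl 105 ± 6.06, Pxn 70.5 ± 5.59 and Ptk2 32.9 ± 2.87. Neighbours in this order had separate ranges over the 3 wild-type libraries except Zyx and Pdlim7, and Synpo2 and Tln1, whose ranges overlapped. In the knockout libraries the upper end of the order was the same, and Pxn (60.7 and 76.3 TPM) stood above Vcl (54.1 and 59.3 TPM) in replicates 1 and 3 but not in replicate 2 (66.8 against 149 TPM). All isoforms of a gene enter its exon length, which lowers the level of genes with long alternative exons.

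Talin and vinculin form the link from integrin to actin. Vcl, which encodes vinculin (ENSMUSG00000021823, mm10 chromosome 14, 20929398 to 21033676, plus strand, 22 exon blocks), had 291.9, 258.0 and 281.0 CPM in wild-type replicates 1, 2 and 3 and 159.3, 373.2 and 157.4 CPM in knockout replicates 1, 2 and 3. Knockout replicates 1 and 3 were near 0.57 of the wild-type mean (0.575 and 0.568), and replicate 2 was above it (1.35), so the groups overlapped. The log2 change was −0.27 ± 0.34 (SE; 95% interval −1.06 to 0.52; edgeR adjusted p = 0.917). Without knockout replicate 2 it was −0.80 ± 0.14, with an unadjusted p of 0.000768 and an adjusted p of 0.134 in edgeR, and without knockout replicate 1 or 3 it was −0.06. Ap3m1, on the other strand, shares exonic sequence with Vcl and had counts equal to 28.5% of those of Vcl. Whether the counting used strand is not stated in the sources used here, so how reads from the shared sequence were counted is not known. Ap3m1 had 75.1 to 86.1 CPM in wild-type and 62.0, 70.8 and 66.9 CPM in knockout replicates 1, 2 and 3.

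Tln1, the talin gene of this group (ENSMUSG00000028465, chromosome 4, 43531519 to 43562422, minus strand), had 558.1, 547.2 and 512.9 CPM in wild-type and 584.8, 777.8 and 446.0 CPM in knockout. Replicates 1 and 2 of the knockout were above and replicate 3 below every wild-type library. The log2 change was 0.16 ± 0.22 (95% interval −0.35 to 0.67; edgeR adjusted p = 0.924), and it was −0.06 without knockout replicate 2. Talin differed from vinculin in replicate 1, where Tln1 was 1.08 and Vcl 0.575 of their wild-type means. Creb3, on the other strand, overlaps Tln1 exons and had counts equal to 7.95% of those of Tln1.

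Among the 10 genes, Flna and Actn1, both crosslinkers of actin, had the profiles nearest to that of the smooth muscle myosin gene Myh11 (root mean square difference of gene-centred log2 CPM 0.102 and 0.246). Flna, the gene of filamin A (ENSMUSG00000031328, chromosome X, 74223461 to 74249820, minus strand), had 6288, 6733 and 6026 CPM in wild-type and 6332, 8892 and 2907 CPM in knockout. Replicate 1 lay within the wild-type range, replicate 2 at 1.40 and replicate 3 at 0.458 of the wild-type mean, and the ratio of highest to lowest knockout library, 3.06, exceeded that of the other 9 genes. Its log2 change was −0.07 ± 0.39 (95% interval −0.97 to 0.83; edgeR adjusted p = 0.989), and it was 0.26 without knockout replicate 3.

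Actn1 encodes an alpha-actinin of non-muscle and smooth muscle cells (ENSMUSG00000015143, chromosome 12, 80167547 to 80260371, minus strand). It had 619.4, 618.0 and 559.6 CPM in wild-type and 608.6, 810.8 and 366.1 CPM in knockout, with 1 knockout library within, 1 above and 1 below the wild-type range. The log2 change was −0.01 ± 0.28 (95% interval −0.66 to 0.64; edgeR adjusted p = 0.998). Its sign changed under 5 of 13 alternatives, and it was 0.24 without knockout replicate 3.

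Synpo2, which encodes synaptopodin-2 (myopodin), an actin-bundling protein of muscle (ENSMUSG00000050315, chromosome 3, 123076519 to 123236147, minus strand), varied within the wild-type group as well. It had 881.5, 797.2 and 523.5 CPM in wild-type and 472.0, 962.3 and 330.6 CPM in knockout. Replicates 1 and 3 of the knockout were below and replicate 2 above every wild-type library, the same order as for Vcl. A log2 change of −0.32 ± 0.40 resulted (95% interval −1.25 to 0.62; edgeR adjusted p = 0.917). Without knockout replicate 2 it was −0.87, with an unadjusted p of 0.0183 and an adjusted p of 0.273, and without knockout replicate 3 it was −0.04.

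Signalling components of the plaque varied least among knockout libraries, with ratios of highest to lowest of 1.21 for Pxn and 1.46 for Ptk2. Pxn, the gene of the adaptor paxillin (ENSMUSG00000029528, chromosome 5, 115506676 to 115555987, plus strand), had 173.7, 196.7 and 189.4 CPM in wild-type and 179.0, 167.2 and 202.6 CPM in knockout. Knockout replicate 2, the highest library for 6 other genes of the group, was the lowest for Pxn, and replicate 3 was the highest. The log2 change was −0.03 ± 0.14 (95% interval −0.35 to 0.29; edgeR adjusted p = 0.986), an interval that spans folds of 0.785 to 1.22.

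Ptk2 encodes focal adhesion kinase (ENSMUSG00000022607, chromosome 15, 73205102 to 73423280, minus strand), which is activated at clustered integrins. It had 116.2, 127.6 and 132.2 CPM in wild-type and 126.2, 107.9 and 86.6 CPM in knockout. Replicates 2 and 3 of the knockout were below every wild-type library and replicate 1 was among them. Its log2 change of −0.23 ± 0.17 had the smallest p of the 10 genes (unadjusted p = 0.206, edgeR adjusted p = 0.800; 95% interval −0.62 to 0.16). Without knockout replicate 1 it was −0.36 (unadjusted p = 0.0449, adjusted p = 0.470), and without knockout replicate 3 it was −0.10.

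Zyx, Csrp1 and Pdlim7, which encode LIM domain proteins of the actin side, were low in knockout replicate 3, as 9 of the 10 genes were. Zyx, the gene of zyxin, which gathers on actin under tension (ENSMUSG00000029860, chromosome 6, 42349630 to 42360213, plus strand), had 548.2, 542.7 and 445.2 CPM in wild-type and 584.8, 640.6 and 343.8 CPM in knockout. A spread of this kind, with replicates 1 and 2 above and replicate 3 below the wild-type range, gave a log2 change of 0.03 ± 0.25 (95% interval −0.55 to 0.61; edgeR adjusted p = 0.993), which changed sign under 5 of 13 alternatives. Epha1, on the other strand, shares exonic sequence with Zyx and had counts equal to 3.65% of those of Zyx.

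Csrp1 encodes a cysteine-rich LIM protein that binds alpha-actinin and zyxin (ENSMUSG00000026421, chromosome 1, 135720061 to 135752232, plus strand). It had 3763, 3827 and 3411 CPM in wild-type and 4054, 3642 and 1949 CPM in knockout. Replicate 1 of the knockout was the highest of the 6 libraries, replicate 2 lay within the wild-type range, and replicate 3 was at 0.531 of the wild-type mean. The log2 change was −0.19 ± 0.29 (95% interval −0.87 to 0.49; edgeR adjusted p = 0.938), and it was 0.07 without knockout replicate 3.

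Pdlim7, a PDZ and LIM domain gene also known as enigma (ENSMUSG00000021493, chromosome 13, 55498416 to 55513676, minus strand), had 450.5, 413.5 and 368.6 CPM in wild-type and 432.1, 402.9 and 265.8 CPM in knockout. Replicates 1 and 2 were within the wild-type range and replicate 3 was below it. The log2 change was −0.16 ± 0.21 (95% interval −0.66 to 0.33; edgeR adjusted p = 0.919), and it was 0.02 without knockout replicate 3.

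**Figure D2:**
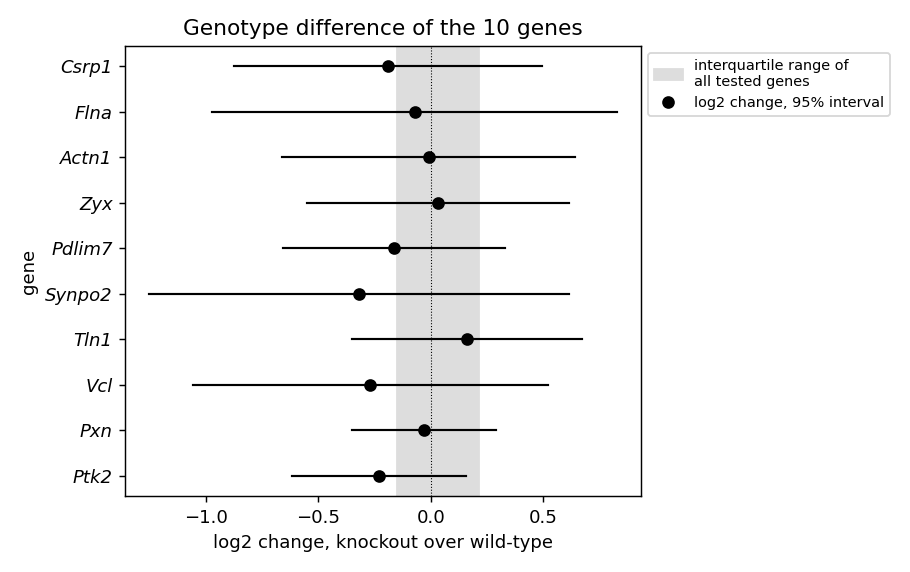
Log2 change, knockout over wild-type, of the 10 genes in edgeR (points) with 95% intervals (lines), ordered by wild-type TPM; the grey band is the interquartile range of log2 change over all 19599 tested genes (−0.15 to 0.22). Each of the 10 intervals includes 0, and those of Synpo2 and Flna are the widest.

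Because muscle markers moved with these genes, each was also expressed as a percentage of the summed counts of the 12 smooth muscle markers in the same library, as a description. On this scale Flna was 16.5, 17.9 and 19.0% in wild-type and 15.5, 19.54 and 15.7% in knockout replicates 1, 2 and 3, so its ratio of highest to lowest knockout library was 1.26, in place of 3.06 in CPM. Csrp1 was 9.88 to 10.8% in wild-type and 9.93, 8.0 and 10.6% in knockout, and Actn1 1.63 to 1.77% and 1.49, 1.78 and 1.98%. For Flna, Csrp1 and Actn1 the knockout shares lay between 0.778 and 1.18 of the wild-type mean, in libraries whose marker sum ran from 18960 to 45360 CPM. Those bounds are the extremes of these genes themselves, so they set no class apart. The other 7 genes each had at least 1 knockout library outside them, Pdlim7 in replicates 2 and 3 (0.770 and 1.25). Against the wild-type range, each knockout library lay outside for Flna (2 below, 1 above) and Actn1 (1 below, 2 above). Csrp1 had 1 below it. The median ratio of highest to lowest knockout library over the 10 genes was 1.66 on this scale and 1.97 in CPM. The ratio was wider than in CPM for Pxn (2.99 against 1.21) and Ptk2 (1.98 against 1.46), and it was 1.63 on both scales for Pdlim7.

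Shares of the other 7 genes left the wild-type range in different libraries. Vcl was 0.767, 0.687 and 0.888% of the marker counts in wild-type and 0.390, 0.820 and 0.852% in knockout, so only replicate 1, at 0.500 of the wild-type mean, stayed low, and replicate 3 fell within the wild-type range. Synpo2 was likewise low in replicate 1 alone (1.16%, against 1.65 to 2.32% in wild-type, and 2.12 and 1.79% in replicates 2 and 3). Pxn was 0.456 to 0.599% in wild-type and 0.438, 0.367 and 1.10% in knockout, with replicate 3 at 2.09 times the wild-type mean. Tln1 was 1.46 to 1.62% in wild-type and 1.43, 1.71 and 2.41% in knockout. Its replicate 1 was below the wild-type range and replicates 2 and 3 above it, replicate 3 at 1.59 times the wild-type mean. Zyx, at 1.41 to 1.45% in wild-type, was 1.43, 1.41 and 1.86% in knockout, so replicate 3 alone stood above the wild-type range. Ptk2 was 0.305 to 0.418% in wild-type and 0.309, 0.237 and 0.469% in knockout, low in replicate 2 and high in replicate 3. Pdlim7 was 1.10 to 1.18% in wild-type and 1.06, 0.885 and 1.44% in knockout, with replicates 1 and 2 below and replicate 3 above the wild-type range. Over the 10 genes the median share relative to wild-type was 0.879, 1.01 and 1.22 in knockout replicates 1, 2 and 3.

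**Figure D3:**
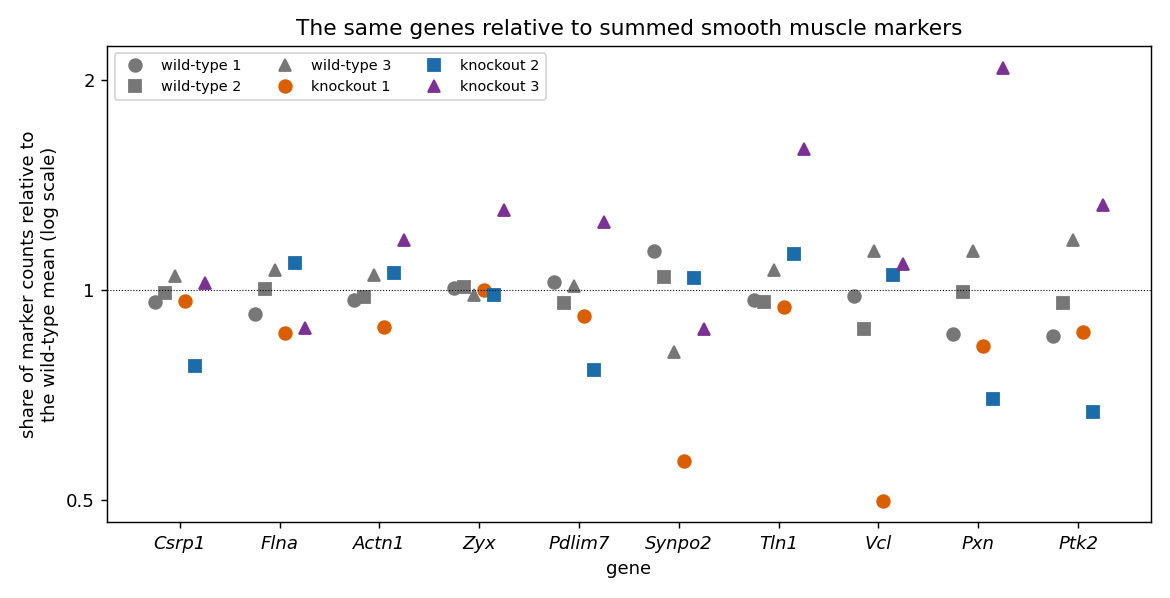
Counts of each gene as a share of the summed counts of 12 smooth muscle markers, divided by the wild-type mean of that share (log axis), for the 6 libraries. Flna, Csrp1 and Actn1 lie between 0.778 and 1.18 in the knockout libraries, and Vcl and Synpo2 are low in knockout replicate 1 alone. Actn1, Pxn, Tln1, Ptk2, Zyx and Pdlim7 are above their wild-type points in knockout replicate 3.

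Paralogs of the 10 genes showed which family member dominates in this tissue and whether it moved alike. Of 22 reported, 21 were tested; 14 had positive and 7 negative log2 changes, 0 passed the threshold in either direction, and the median was 0.03. In wild-type myometrium Flna (2090 TPM) stood above Flnc (238 ± 17.9). Knockout replicate 3 had 0.458 of the wild-type mean CPM for Flna and 0.428 for Flnc. Actn4, at 241 ± 16.9 TPM, was 0.916 of its wild-type mean there, while Actn1 was 0.611, so that Actn4 (220 TPM) exceeded Actn1 (204 TPM) in that library. Tln2, at 3.48 ± 0.335 TPM, was a minor talin beside Tln1, and Csrp2, at 82.1 ± 8.84 TPM, was minor beside Csrp1.

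Tgfb1i1, which encodes Hic-5, the paxillin relative of smooth muscle, was the more abundant of that family at 170 ± 9.46 TPM in wild-type, against 70.5 for Pxn. Its CPM was 301.2, 326.0 and 294.2 in wild-type and 393.9, 385.4 and 158.4 in knockout replicates 1, 2 and 3, so it was high where the muscle marker sum was high, and Pxn was not. The log2 change of Tgfb1i1 was 0.03 ± 0.33 (edgeR adjusted p = 0.996). In the kinase family Ptk2b (23.2 ± 1.80 TPM in wild-type) was below Ptk2 in the wild-type libraries and had 57.2, 83.7 and 59.6 CPM in knockout against 53.0 to 58.9 in wild-type. In knockout replicates 2 and 3 the order turned, with Ptk2b at 37.0 and 24.9 TPM and Ptk2 at 30.0 and 22.6 TPM.

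Relatives of zyxin parted from one another. Lpp, at 95.6 ± 7.14 TPM, had 673.1, 738.4 and 632.7 CPM in wild-type and 373.6, 819.3 and 375.4 CPM in knockout, the arrangement of Vcl (log2 −0.38 ± 0.32, edgeR adjusted p = 0.849). Trip6 was even across libraries at 69.2 to 76.2 CPM in wild-type and 69.0 to 76.4 in knockout. Ajuba had 62.5 to 70.1 CPM in wild-type and 71.7, 87.3 and 124.7 CPM in knockout, groups that did not overlap (log2 0.53 ± 0.21, unadjusted p = 0.0353, edgeR adjusted p = 0.534). Limd1 had 110.2 to 114.1 CPM in wild-type and 98.0 to 104.0 CPM in knockout, also without overlap (log2 −0.15 ± 0.11, adjusted p = 0.824).

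PDLIM genes beside Pdlim7 (262 TPM) were led by Pdlim3 at 190 ± 17.1 TPM, with 444.1, 527.0 and 244.9 CPM in knockout against 284.2 to 354.6 in wild-type. In knockout replicate 2 Pdlim3 (335 TPM) exceeded Pdlim7 (272 TPM). Pdlim5 had 133.7 to 175.7 CPM in wild-type and 90.0, 218.2 and 128.7 CPM in knockout, another gene low in replicate 1 and high in replicate 2. Pdlim1, Pdlim2 and Pdlim4 had log2 changes of −0.11, 0.34 and 0.03 with adjusted p of at least 0.693. Synpo, at 26.7 ± 2.45 TPM, had 75.9 to 90.9 CPM in wild-type and 76.8, 77.2 and 94.6 CPM in knockout, without the fall of Synpo2 in replicates 1 and 3.

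**Figure D4:**
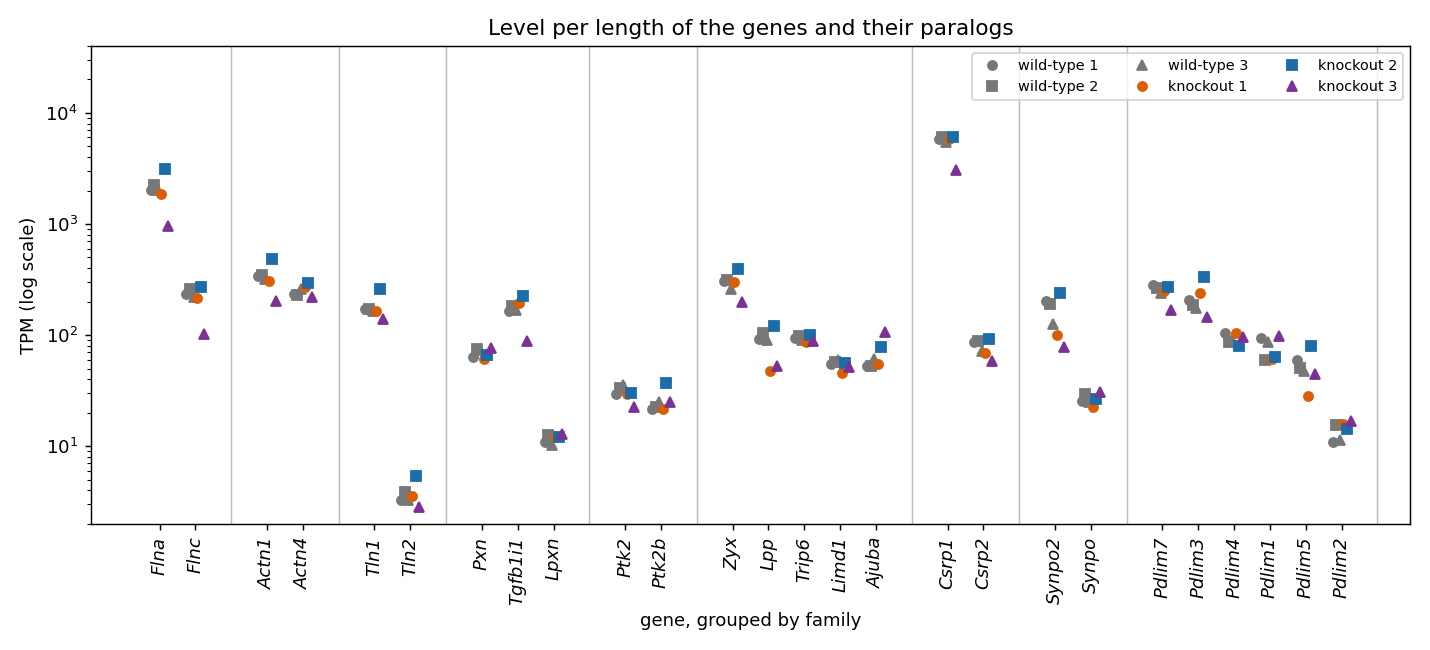
TPM (log axis) of the 10 genes other than Vcl and of their paralogs, grouped by family with grey lines between families; grey symbols are wild-type replicates and coloured symbols knockout replicates. Flna, Actn1, Tln1, Ptk2, Zyx, Csrp1, Synpo2 and Pdlim7 exceed their plotted relatives in the wild-type mean, and Tgfb1i1 exceeds Pxn.

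Other genes of the adhesion pathway were taken from 4 further lists. Of all 80 genes reported, paralogs included, 78 were tested: 45 had positive and 33 negative log2 changes, 0 passed in either direction (DESeq2 and limma-voom also called 0), at an unadjusted p under 0.05 there were 2 higher genes and 2 lower ones, and the median log2 change was 0.03. Integrin activators and the ILK complex were positive in 8 of 11 (median 0.25), tensins and actin linkers in 10 of 17 (0.06), adhesion kinases and adaptors in 7 of 19 (−0.08) and integrin subunits in 6 of 10 (0.06). All genes together had a median of 0.01.

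The leading gene of the actin linkers was Palld, the gene of palladin, a scaffold of actin bundles. Palld had 980.9, 1069 and 802.9 CPM in wild-type and 562.5, 770.0 and 374.0 CPM in knockout, so each knockout library was below each wild-type library, replicate 2 included. Its log2 change was −0.74 ± 0.28 (unadjusted p = 0.0296, edgeR adjusted p = 0.513), and 3.29% of all genes were lower at that level. Enah, the gene of an actin-elongating protein, had 186.2 to 261.8 CPM in wild-type and 174.3 to 192.7 CPM in knockout, with overlap.

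Itgb3, an integrin beta subunit gene, was arranged like Palld, with 374.6, 363.8 and 331.4 CPM in wild-type and 186.2, 292.1 and 122.5 CPM in knockout (log2 −0.83 ± 0.30, unadjusted p = 0.0245, edgeR adjusted p = 0.480). Itga3 had a log2 change of 0.34 ± 0.18. Parvg, a parvin gene of blood cells, had 1.85 to 2.62 CPM in wild-type and 3.28 to 3.54 CPM in knockout (log2 0.65 ± 0.22, adjusted p = 0.456), and Apbb1ip, an activator of talin in blood cells, a log2 change of 0.34 ± 0.15. White blood cell markers (8 of 8 detected) summed to 313.4 to 441.2 CPM in wild-type and 369.8 to 467.8 CPM in knockout beside them, a sum carried by Csf1r and Cd68. Of the 8 markers 8 had positive log2 changes (median 1.07), 5 had an unadjusted p under 0.05, 0 passed the adjusted threshold, and 5 were higher without overlap (62.5%, against 7.23% of all genes). S100a8, a neutrophil gene, had 26, 47 and 27 counts in wild-type and 350, 116 and 100 in knockout. The part of these cells in the values of Parvg and Apbb1ip was not tested. Yes1 and Ptpn11, leading the kinases and adaptors, had log2 changes of −0.30 ± 0.16 and −0.21 ± 0.16.

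Genes whose profile over the 6 libraries was most like the median profile of the 10 were sought among 10146 other genes with a mean CPM of at least 10, by the root mean square difference of log2 CPM centred on each gene's mean. The nearest was Tpm1, a tropomyosin gene (difference 0.053), with 3515, 3514 and 3185 CPM in wild-type and 3460, 4394 and 1977 CPM in knockout. Srf, the gene of serum response factor, was the next (0.055), with 91.4, 89.3 and 80.1 CPM in wild-type and 90.3, 108.7 and 60.6 CPM in knockout. Fgfr1 (0.062), Slc4a3 (0.064), Mob3a (0.068) and Fermt2, the gene of the integrin activator kindlin-2 (0.071), completed the nearest 6. Within the group, Actn1 was the closest to the median profile (0.047) and Pxn the farthest (0.38), with Synpo2 and Vcl next (0.33 and 0.32).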

How the data were processed

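Poly(A)-selected, directional RNA libraries from myometrium of 3 wild-type and 3 Tcf23 knockout mice, each a different animal per the series design, were analysed. The authors deposited unnormalized counts by Ensembl identifier, 1 file per library, and a table of normalized values; per the submitters' processing notes, FastQC 0.73, HISAT2 2.2.1, HTSeq 0.9.1, DESeq2 2.11.40.7 and mm10 were used, with no role or order. Neither annotation release nor strand setting is stated in the sources used here. The deposited normalized signal of each library is its counts times 1 constant (0.804 to 1.26), so tests used the counts.

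The main test was that of edgeR 4.0.16 in R 4.3.3 (filterByExpr, TMM, quasi-likelihood, genotype as the term, Benjamini-Hochberg over 19599 genes, adjusted p under 0.05). CPM of single genes are relative to TMM-scaled library sizes, sums over lists to total counts. A ± beside a log2 change is its SE, taken as the change divided by the square root of F; 95% intervals use the t distribution with residual plus prior degrees of freedom. TPM used GENCODE M21 exon lengths (54804 of 55055 identifiers found). Alternatives were RLE and upper-quartile scaling, other filters, DESeq2 1.42.0 and limma-voom 3.58.1 on the same filtered genes, a replicate block, and leaving out each library.

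On simulated counts (19292 genes, 3 against 3), edgeR recovered 36% of 2-fold and 100% of 4-fold changes, with 2.86% false calls. All genes were simulated with a single common dispersion, equal in both groups, and changes were placed only in genes above a floor of average CPM. The real knockout group spread more widely, so these rates do not carry over to genes that vary more, such as Synpo2 and Flna. The biological coefficient of variation in the real data was 26.3%. No library was a duplicate: pairs of replicates gave 36.3 to 234 as chi-square divided by degrees of freedom. Replicate numbers in the titles are shared between genotypes. Deviations from the group mean correlated across genes at 0.147, 0.196 and 0.217 for equal numbers and at −0.223 to 0.061 for unequal numbers. Equal numbers were therefore treated as pairs in the block fit. Deviations cancel within a group, so these correlations are not independent, and they come from the same data as the fit. What links the pairs is not stated.

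The genes, the lists and the tests were chosen with earlier results of these data known. The text names all 10 genes, paralogs with a mean CPM of at least 10, the 2 genes of smallest p from each other list, and the 6 genes of nearest profile. A paralog and a further list are not reported here and are left out of the counts over lists.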

Additional observations from a re-analysis of the deposited data

How the results depend on the processing

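No gene of the group and none of the other adhesion genes passed the threshold in any of the 13 alternatives, leave-one-out fits included; the smallest adjusted p for the 10 genes was 0.134 (Vcl without knockout replicate 2). Of 130 refits of single genes, 113 kept their sign and 17 reversed, for 7 genes. With upper-quartile scaling Actn1 was 0.026 and Pxn 0.0049, with a CPM of at least 1 in 3 libraries Actn1 was 0.0035, with limma-voom Zyx was −0.031, and with the replicate block Zyx was −0.013. The other reversals came from leaving out 1 library. Ranges over these fits were −0.062 to 0.335 for Tln1, −0.456 to 0.26 for Flna, −0.294 to 0.243 for Actn1, −0.11 to 0.037 for Pxn, −0.137 to 0.257 for Zyx, −0.385 to 0.068 for Csrp1 and −0.291 to 0.021 for Pdlim7. Leaving out knockout replicate 3 gave the highest value for Tln1, Flna, Actn1, Ptk2, Zyx, Csrp1, Synpo2 and Pdlim7. The cause was not tested. The replicate block changed no call in the group. Over all genes, counts of higher and lower calls were 4 and 8 with upper-quartile scaling, 47 and 34 with no filter, and 248 and 138 with DESeq2; the block gave 2 higher genes. Leaving out 1 library gave 0 to 3 higher and 1 to 4 lower genes, the lowest count being without wild-type replicate 1 or 2. Shares of the smooth muscle marker counts averaged 1.04 of wild-type over knockout libraries that lay on both sides of 1, 1.11 with Myh11 as the marker and 1.01 without Acta2 and Actg2. Knockout replicate 3 moved from 1.22 to 1.54 with Myh11, while replicates 1 and 2 were 0.902 and 0.887. Of the nearest 6 genes, 3 were shared when profiles were scaled to unit SD and 4 with a minimum mean CPM of 1. With 3 libraries a group, the 95% intervals still spanned folds of 0.509 to 1.78 for Flna and 0.419 to 1.53 for Synpo2.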
